A study of Mus musculus with 3 samples.

Results

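The genes described here are 10 components of insulin, leptin and adiponectin signalling, read in helper T cells labelled as memory phenotype CD4 T cells. They are the receptors Insr, Igf1r, Lepr, Adipor1 and Adipor2, the adaptors Irs1 and Irs2, and Pik3r1, Akt1 and Akt2 of the kinase cascade below them. Every probe set that the platform annotation assigns to 1 of these symbols was taken, which gave 30 probe sets of 45037 and 10 genes of 18193. The study holds 3 Affymetrix mouse arrays. The HFD group has 2 arrays, from BALB/c mice given a high fat diet with 60 kcal% fat, and the ND group has 1 array, from BALB/c mice given a normal diet, both diets for 10 weeks. Cells of both groups were sorted from spleen to over 99% purity, per the labels' protocols. The labels give neither age nor sex, nor the number of mice behind an array. The p-values below therefore measure the spread between these arrays alone, and that spread may be technical.

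Insulin and the insulin-like growth factors bind the tyrosine kinase receptors INSR and IGF1R, which phosphorylate the IRS adaptors. These recruit phosphoinositide 3-kinase (PI3K), whose regulatory subunit p85 is encoded by Pik3r1, and the lipid it makes activates the AKT kinases, which in turn keep FOXO transcription factors out of the nucleus. Leptin acts through LEPR and JAK2 on STAT3, and adiponectin through ADIPOR1 and ADIPOR2 on the energy sensor AMPK. In T cells these hormones link nutrition to growth and glucose use, and FOXO factors support quiescence and homing.

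The high fat diet arrays read lower than the normal diet array for Pik3r1, Insr and Igf1r. Pik3r1 was 1.98-fold lower, Insr 1.68-fold lower and Igf1r 1.45-fold lower in HFD. Adipor2 was 1.29-fold lower on its brightest probe set but higher on its other one. Adipor1, Akt1 and Akt2 were not called, and Lepr, Irs1 and Irs2 were too dim to be tested. Below, a level is a linear intensity, and a difference is HFD minus ND on the log2(intensity + 17.7) scale, which understates changes of dim genes. Every fold given here is taken from that difference, so it can be smaller than the ratio of the printed intensities. A gene is called where limma's moderated test, fitted over 10341 genes, gave an adjusted p under 0.05. The fit takes its spread from the HFD pair and assumes the same for ND, and a gene entered the test where the mean of its brightest probe set over the arrays was above 71.4.

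Of the 7 genes that entered the test, 4 were called lower and 0 higher (0 higher also at an unadjusted p under 0.05), against 29.2% lower and 20.5% higher over all genes. With each array centred on its median the balance over all genes turned, to 20.3% lower and 26.7% higher, and 3 members were then called lower and 1 higher. The members' median difference was -0.37, against -0.15 over all genes, and the differences below are not corrected for the latter. That median was -0.09 over the 6550 genes above a filter at the 75th percentile and -0.08 with quantile normalization. No single amount can thus be subtracted from each difference. Both HFD arrays lay below ND for 5 of the 7, against 54.7% of all genes. The background of calls is thus high, and no member was 2-fold lower or higher in both HFD arrays, against 2.6% of genes lower and 6% higher.

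The ND array stands apart from the HFD arrays, so diet and any batch in which ND was handled alone cannot be told apart. H2-Ea is a class II histocompatibility gene that BALB/c mice express and C57BL/6 mice do not. On its brightest probe set it read 536 and 602 in HFD and 11.5 in ND, although both groups are labelled BALB/c. This gene was chosen after its values were seen, and its bearing on the members was not tested. Some B cell markers also read far lower in ND, as given below, and whether H2-Ea followed strain or cell content was not tested. The T cell identity of the samples was borne out by Cd3e (2558 and 2426 in HFD, 4167 in ND), Cd4 (609 and 377 in HFD, 911 in ND) and Cd44 (5623 and 5700 in HFD, 9761 in ND), while 8 of 10 T cell markers were themselves called lower. Marker sums for other cell types moved too. Macrophage genes summed to 954 and 1146 in HFD and 2511 in ND (5 of 6 tested lower). Dendritic cell genes summed to 832 and 966 in HFD and 2005 in ND (4 of 6 lower). Neutrophil genes summed to 625 and 737 in HFD and 227 in ND (2 of 3 higher). That rise was carried by S100a8 (247 and 362 in HFD, 40.9 in ND) and S100a9 (183 and 131 in HFD, 5.85 in ND). The neutrophil gene Ngp was not called (limma, adjusted p = 0.866), and 5 others were too dim to be tested. B cell genes summed to 9866 and 10725 in HFD and 10326 in ND. This sum was carried by the immunoglobulin gene Ighm (7336 and 7881 in HFD, 9851 in ND), called lower on its brightest probe set. The 3 other tested probe sets of Ighm disagreed in sign, with differences from -0.71 to 0.47. Of 4 B cell markers tested 2 were higher. The surface antigen CD20 gene Ms4a1 read 1612 and 1837 in HFD and 56.8 in ND (limma, adjusted p = 1.7e-09). Fcer2a (CD23) read 524 and 644 in HFD and 31.6 in ND (limma, adjusted p = 7.9e-08). Cd79b read 190 and 168 in HFD and 219 in ND and was not called (limma, adjusted p = 0.355). A further 5 B cell markers were too dim to be tested. The CD8 T cell marker Cd8a was also called higher on its brightest probe set, at 177 and 230 in HFD and 99.0 in ND. Its 3 other tested probe sets had differences from -0.28 to 0.78, so they disagreed in sign. The other CD8 marker, Cd8b1, read 404 and 485 in HFD and 350 in ND and was not called (limma, adjusted p = 0.153). Among these markers, S100a8, S100a9, Ms4a1, Fcer2a and Cd8a were named for their values. As a bound for background the 95th percentile of 80 olfactory and vomeronasal receptor probe sets was taken, genes that T cells should lack. Of 47 markers of cells other than CD4 T cells, 16 lay under it on every array, among them Cd79a, Cd14, Xcr1 and Mpo, 18 lay above it on every array, among them Csf1r, Lyz2 and Siglech, and 13 crossed it. The part of these shifts in the results below was not tested, and in bulk RNA fewer cells of a type and less RNA per cell cannot be told apart.

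**Figure D1:**
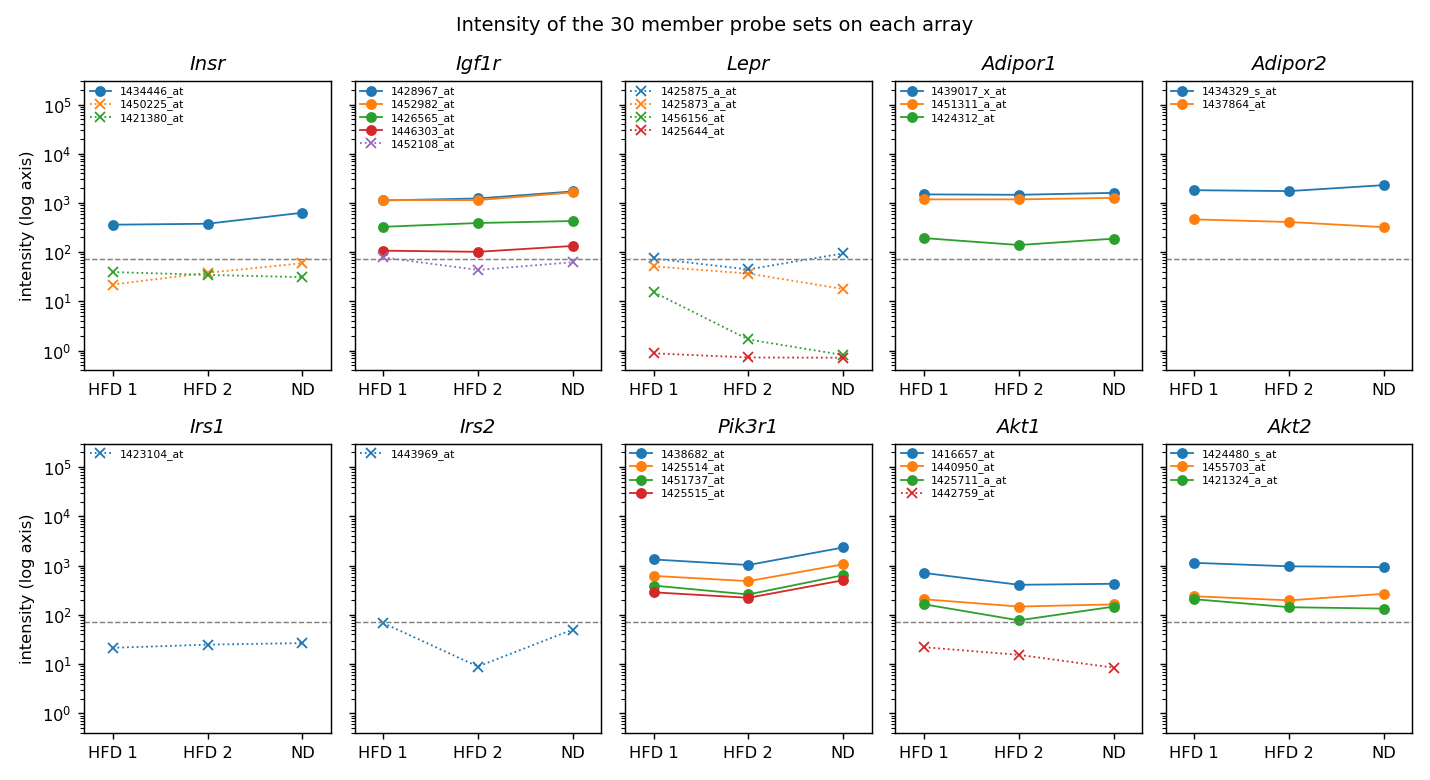
Intensity (log axis) of all 30 member probe sets on the HFD 1, HFD 2 and ND arrays, 1 panel per gene and 1 line per probe set. Circles with solid lines mark the 20 probe sets above the filter of 71.4 (dashed line), crosses the 10 below it; the 4 Pik3r1 lines run parallel, with ND highest, whereas every Lepr, Irs1 and Irs2 probe set lies among the crosses.

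To show the sequence before the genes called lower, the 250 bases upstream of their RefSeq starts (build GRCm38.p6) are given 5′ to 3′ on the coding strand, with motif matches in capitals. Promoters of 9 of the 10 genes matched, in 16 windows, and Insr had no entry. Pik3r1 has 2 starts, at chr13:101768218-101768467 and chr13:101692631-101692880, both on the minus strand. Igf1r lies at chr7:67952007-67952256 (plus strand) and Adipor2 at chr6:119388735-119388984 (minus strand).
Pik3r1 upstream start: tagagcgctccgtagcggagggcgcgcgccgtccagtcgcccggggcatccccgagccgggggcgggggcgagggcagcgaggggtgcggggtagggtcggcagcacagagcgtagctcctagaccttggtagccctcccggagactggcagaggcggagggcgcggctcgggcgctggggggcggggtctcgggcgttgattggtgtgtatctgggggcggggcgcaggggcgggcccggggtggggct
Pik3r1 internal start: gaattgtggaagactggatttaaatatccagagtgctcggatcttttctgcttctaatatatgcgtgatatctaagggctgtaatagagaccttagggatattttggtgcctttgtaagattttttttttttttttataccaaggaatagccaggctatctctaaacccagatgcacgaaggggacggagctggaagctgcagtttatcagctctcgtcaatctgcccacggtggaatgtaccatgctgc
Igf1r: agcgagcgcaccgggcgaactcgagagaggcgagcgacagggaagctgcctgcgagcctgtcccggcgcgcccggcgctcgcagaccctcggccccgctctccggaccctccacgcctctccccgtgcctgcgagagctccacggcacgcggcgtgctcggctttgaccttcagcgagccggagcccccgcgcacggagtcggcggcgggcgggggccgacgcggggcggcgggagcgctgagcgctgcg
Adipor2: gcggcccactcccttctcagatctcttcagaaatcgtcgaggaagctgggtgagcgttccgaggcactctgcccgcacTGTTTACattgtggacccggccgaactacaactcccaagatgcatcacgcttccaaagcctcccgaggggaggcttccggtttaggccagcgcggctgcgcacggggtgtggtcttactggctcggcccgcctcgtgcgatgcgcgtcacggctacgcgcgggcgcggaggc
The windows were searched on both strands for the FOXO letters GTAAACA, the STAT letters TTCNNNGAA, the E-box CACGTG and the SREBP letters TCACNCCAC. Only the Adipor2 sequence above holds a match, to the FOXO letters, which occur in 3.17% of all 32851 promoter windows. Among the 16 windows of the members, 2 held the FOXO letters (Adipor2 and Akt1), 1 the STAT letters (Akt2), 2 the E-box (Irs1 and Irs2) and 0 the SREBP letters, against 7.02%, 6.02% and 1.05% of all windows for the last 3 motifs. The upstream Pik3r1 start and Igf1r lie in GC-rich sequence (76.4% and 77.6% G or C, with 30 and 42 CpG), whereas the internal Pik3r1 start has 42.4% and 6 CpG. The probe sets were not assigned to either start here.

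Insr, the insulin receptor, is carried by 3 probe sets, of which 1 was bright enough to test. Probe set 1434446_at read 362 and 378 in HFD and 633 in ND. Both HFD arrays were close to each other and well below ND. The difference was -0.75 ± 0.17 (SE; limma, adjusted p = 0.0024). The dim probe sets disagreed in direction, at 22.0 and 38.1 in HFD and 59.6 in ND on 1450225_at, and 39.4 and 34.6 in HFD and 31.1 in ND on 1421380_at. All of these lie under the 95th percentile of the olfactory and vomeronasal receptor probe sets, which was 59.8 and 58.5 on the HFD arrays and 63.5 on the ND array.

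Igf1r, the receptor for insulin-like growth factors, has 5 probe sets, 4 of them past the filter. The brightest, 1428967_at, read 1124 and 1234 in HFD and 1715 in ND, a difference of -0.54 ± 0.13 (SE; limma, adjusted p = 0.0050). Probe set 1452982_at read 1146 and 1143 in HFD and 1636 in ND, and it was also called lower when all 22518 probe sets past the filter were fitted singly (-0.51, limma adjusted p = 0.0105). On both, the HFD arrays lay within a narrow range below ND. The other pair past the filter also read below ND in both HFD arrays without being called (1426565_at at -0.25 and 1446303_at at -0.31, limma adjusted p = 0.317 and 0.426). The dimmest, 1452108_at, read 78.3 and 43.6 in HFD, on either side of 62.3 in ND.

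Lepr, the leptin receptor, was at the edge of measurement. Its brightest probe set, 1425875_a_at, read 74.5 and 44.7 in HFD and 94.5 in ND, a mean of 71.2 that fell just short of the filter, the closest of all member probe sets below it; the closest above it was 1446303_at of Igf1r at a mean of 114. The next, 1425873_a_at, ran the other way, at 51.4 and 36.9 in HFD and 17.9 in ND. The remaining pair read at most 15.4 on any array. With no filter the difference of the brightest was -0.57 with a 95% interval of -1.65 to 0.52 (limma, adjusted p = 0.438), so neither a change nor its absence was detectable at this signal. Leprot, which shares its start region with Lepr, and its relative Leprotl1 encode proteins that regulate receptor traffic, and both fell. Leprot read 1423 and 1350 in HFD and 2109 in ND (-0.60 ± 0.13 SE; limma, adjusted p = 0.0017). Leprotl1 read 4116 and 3484 in HFD and 5975 in ND (-0.66 ± 0.12 SE; limma, adjusted p = 5.4e-04). Whether any of these probe sets reads sequence common to Lepr and Leprot was not tested.

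The adiponectin receptors differed in how well their probe sets matched each other. Adipor1 read 1495 and 1465 in HFD and 1603 in ND on 1439017_x_at, and 1180 and 1183 in HFD and 1268 in ND on 1451311_a_at. Both show HFD slightly below ND, by less than the median difference of all genes tested (-0.15). Its dimmer probe set, 1424312_at, read 193 and 140 in HFD, on either side of 188 in ND. The difference on 1439017_x_at was -0.11, with a 95% interval of -0.39 to 0.16 (limma, adjusted p = 0.472), and with arrays centred it was 0.04. Adipor2 read 1816 and 1742 in HFD and 2303 in ND on 1434329_s_at, a difference of -0.37 ± 0.12 (SE; limma, adjusted p = 0.0222). Its other probe set, 1437864_at, read 464 and 411 in HFD and 322 in ND, a difference of 0.42 in the fit of single probe sets (limma, adjusted p = 0.0882). The probe sets of Adipor2 thus lie on opposite sides of ND, and their mean differed by 0.02 (limma, adjusted p = 0.889). The call also ended with arrays centred (adjusted p = 0.197). Names ending in _s_at or _x_at mark probe sets that can bind more than 1 transcript, and cross-binding was not tested.

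The IRS adaptors were dim. Irs1, with a single probe set, read 21.4 and 24.9 in HFD and 26.7 in ND. Irs2, the adaptor that also serves the interleukin-4 receptor in lymphocytes, read 68.3 and 8.94 in HFD, on either side of 50.3 in ND. Its HFD arrays differed from each other by more than either differed from ND, so no direction can be read from it. Irs1 lay on every array under the 95th percentile of the olfactory and vomeronasal receptor probe sets, and Irs2 lay above it on HFD 1 alone.

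Pik3r1, the p85 alpha regulatory subunit of PI3K, gave the same reading on each of its 4 probe sets. The brightest, 1438682_at, read 1337 and 1030 in HFD and 2343 in ND, a difference of -0.99 ± 0.16 (SE; limma, adjusted p = 2.3e-04). Probe set 1425514_at read 620 and 485 in HFD and 1067 in ND. Probe set 1451737_at read 394 and 260 in HFD and 640 in ND, and 1425515_at read 287 and 222 in HFD and 506 in ND. HFD 2 was the lowest array and ND the highest in every case. In the fit of single probe sets all 4 were called lower, at -0.94 to -0.99 (limma, adjusted p at most 0.0052). Of the 20 member probe sets past the filter, 8 were called lower and 0 higher, against 24.4% and 17% of all probe sets; 1 was higher at an unadjusted p under 0.05 (1437864_at of Adipor2). Probe sets of 1 gene share RNA and arrays and are not replicates.

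Akt1 and Akt2, the kinases activated downstream of PI3K, were not called. Akt1 read 712 and 409 in HFD, on either side of 428 in ND, on 1416657_at, and the same order held on 1440950_at (208 and 148 in HFD, 163 in ND) and 1425711_a_at (164 and 77.4 in HFD, 147 in ND). HFD 1 was above HFD 2 on all 4 Akt1 probe sets, including the dim 1442759_at (22.1 and 15.4 in HFD, 8.48 in ND), as it was on all 3 Akt2 and all 4 Pik3r1 probe sets. The Akt1 difference was 0.32, with a 95% interval of -0.21 to 0.86 (limma, adjusted p = 0.296). It was -0.06 without HFD 1 and 0.71 without HFD 2, so a single array sets its sign. Akt2 read 1142 and 970 in HFD and 934 in ND on 1424480_s_at, a difference of 0.17 with a 95% interval of -0.15 to 0.49 (limma, adjusted p = 0.360). Its other probe sets lay on opposite sides of ND, at 239 and 197 in HFD and 268 in ND on 1455703_at, and 208 and 143 in HFD and 134 in ND on 1421324_a_at.

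**Figure D2:**
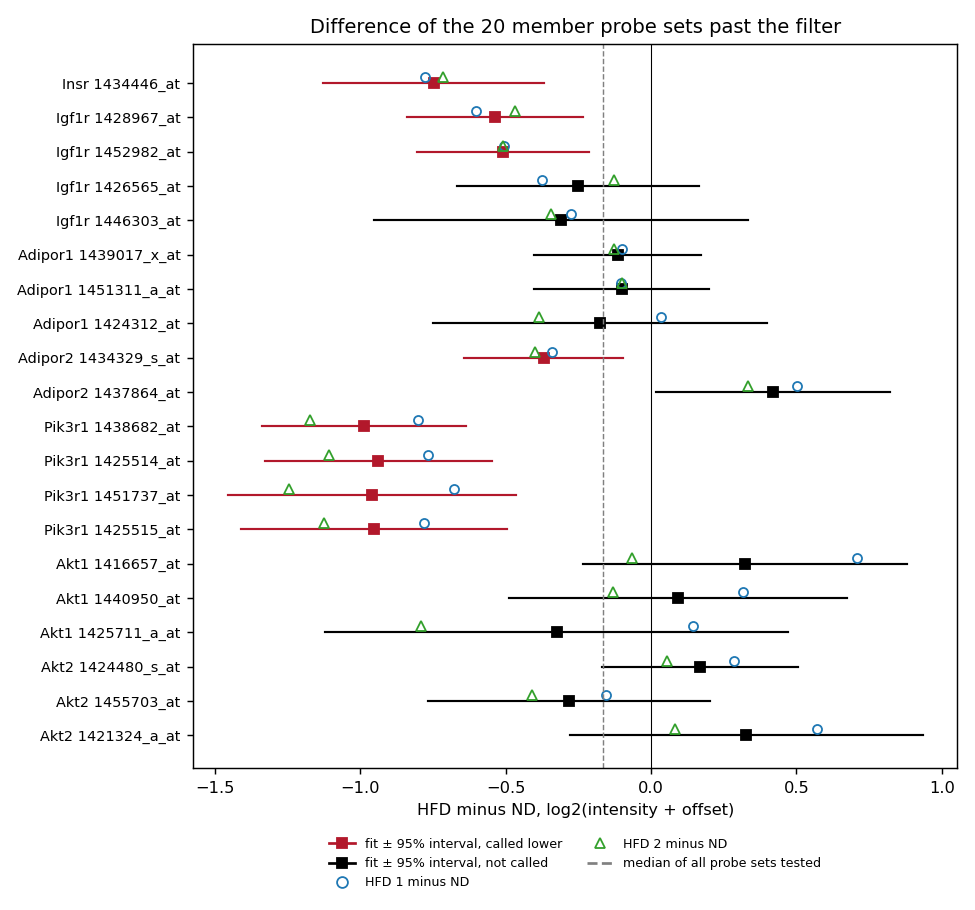
Difference to ND of the 20 member probe sets past the filter, on the log2(intensity + 17.7) scale. Squares with bars are the fitted HFD minus ND difference with its 95% interval (red where called lower), open circles and triangles the HFD 1 and HFD 2 arrays, and the dashed line the median of all probe sets tested (-0.16); the 4 Pik3r1 probe sets lie between -0.94 and -0.99, and the 3 Akt1 probe sets have HFD 1 and HFD 2 on opposite sides of 0.

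The rest of the pathway was read from a list of 95 further genes, of which 89 were on the array table used here and 70 entered the test. Of these, 30 were called lower and 3 higher, against 29.2% lower and 20.5% higher of all genes, and the median difference was -0.38 against -0.15. With arrays centred 20 were lower and 5 higher, against 20.3% and 26.7% of all genes, and without a variance trend 19 were lower, against 21.4%. The FOXO factors, which AKT restrains, were called lower in 3 of 3. Foxo1 read 1806 and 1664 in HFD and 3259 in ND (-0.90 ± 0.12 SE; limma, adjusted p = 6.3e-05). Foxo3 read 1192 and 980 in HFD and 2522 in ND (-1.21 ± 0.14 SE; limma, adjusted p = 2.5e-05). Foxo4 read 170 and 163 in HFD and 282 in ND (limma, adjusted p = 0.0207, and adjusted p = 0.0602 with arrays centred).

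Counts of genes called lower in a role are to be read against the 29.2% of all genes called lower. Of 8 genes of the AKT kinase module 5 were lower. Tbc1d4, the AKT substrate AS160 that holds back glucose transporters, read 4290 and 4649 in HFD and 9547 in ND (-1.09 ± 0.10 SE; limma, adjusted p = 2.4e-06). Sgk1, an AKT-related kinase, was 1.71-fold lower, and Gsk3b, a kinase that AKT inhibits, 1.49-fold lower, a call that ended under 3 of 11 alternatives. The PI3K subunit role is the list's own grouping and also holds Pik3ap1, an adaptor. Of its 11 genes 3 were lower, a share no higher than that of all genes. These were Pik3ca, which encodes the catalytic partner of p85, at 2039 and 2114 in HFD and 2867 in ND (1.38-fold lower), Pik3c3 and Pik3c2a. The calls of Pik3ca and Pik3c3 each ended under 1 of 11 alternatives (adjusted p = 0.0516 without a variance trend and 0.0630 with arrays centred). Pik3c2a had a difference of -0.45 on its brightest probe set and 0.03 on the other one tested, and the mean over its probe sets was -0.21 and not called (limma, adjusted p = 0.308). The catalytic subunit p110 delta of leukocytes, Pik3cd, read 10241 and 10768 in HFD and 9163 in ND and was not called (limma, adjusted p = 0.0729); it was named after its values were seen. Its 4 other tested probe sets had differences below 0 (-0.42 to -0.06), as had the mean over probe sets (-0.18; limma, adjusted p = 0.273), whereas with arrays centred the brightest was called higher (0.35; limma, adjusted p = 0.0097), so no direction can be given for this gene. Genes that oppose PI3K fell in 4 of 8, namely the inositol phosphatases Inpp5d (SHIP1, 1.59-fold lower), Inpp4a (1.69-fold) and Inpp5k (1.60-fold) and the PI3K inhibitor Pik3ip1 (1.38-fold). The other probe sets of Inpp5k gave larger differences (-1.09 and -1.90, against -0.68 on the brightest), and their mean with it was -1.22 (limma, adjusted p = 0.0012). The call of Pik3ip1 ended under 5 of 11 alternatives (adjusted p up to 0.0987).

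In the roles that the list places close to the receptors, 2 of 7 adaptor genes and 5 of 10 inhibitor genes were lower and 1 inhibitor was higher. The 5 were Socs3, Trib1, Trib2, Sh2b3 and Ptpn11. The inhibitor role is the list's own, and whether each gene acts as an inhibitor in these cells was not tested. Sh2b1, an adaptor of the leptin and insulin receptors, read 693 and 661 in HFD and 1162 in ND (1.70-fold lower), and the adaptor Gab3 was 1.98-fold lower, a call lost under 2 of 10 alternatives. Socs3, the feedback inhibitor of leptin signalling, read 4864 and 3899 in HFD and 6723 in ND (1.54-fold lower), and lost its call without a variance trend (adjusted p = 0.0573). The Tribbles pseudokinases split, with Trib1 (2.02-fold) and Trib2 (1.70-fold) lower and Trib3, which binds AKT, higher at 181 and 185 in HFD and 87.3 in ND (1.91-fold). With no filter the calls of Trib1 and Trib3 ended (adjusted p = 0.0654 and 0.0864), and averaging the Trib1 probe sets gave -0.62 in place of -1.01 (adjusted p = 0.0836). Among 4 receptor relatives 3 fell, including Igf2r, the clearance receptor for IGF2 (1.31-fold lower; the call ended under 4 of 11 alternatives, with adjusted p up to 0.173). Among 5 ligand and binding protein genes, Igfbp4, an insulin-like growth factor binding protein, rose to 475 and 414 in HFD, against 184 in ND (2.28-fold), and Igf2 was called lower at 12.3 and 67.9 in HFD and 152 in ND, a dim probe set whose HFD arrays differed widely and whose call ended under 4 of 10 alternatives.

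In the list's leptin JAK-STAT arm 4 of 5 genes were called lower on their brightest probe set. These were Jak2, Stat3, Stat5b and Tyk2 (for Tyk2, limma, adjusted p = 0.0396), of which only Jak2 and Stat3 belong to the leptin route outlined at the start. Jak2 read 4851 and 5099 in HFD and 6576 in ND (1.32-fold lower), and Stat3 1935 and 1620 in HFD and 2394 in ND (1.35-fold lower). With arrays centred neither was called (-0.25 and -0.28; limma, adjusted p = 0.0918 and 0.0869), nor without a variance trend (adjusted p = 0.0720 and 0.102), and Stat3 also lost its call with no filter (0.0833) and with the prior degrees of freedom fixed at 4 (0.0760). Stat5b was 1.59-fold lower on its brightest probe set and its other probe set read higher (a difference of 0.54), and the mean of both was not called (limma, adjusted p = 0.710), whereas Stat5a rose 1.52-fold. In the list's AMPK and PPAR arm of adiponectin signalling, Ppara, Ppargc1a, Prkaa2 and Prkag3 were too dim to be tested. The tested genes of this arm thus cover its AMPK side alone, and nothing can be said of its PPAR side. Of these 9 genes 0 were called by limma, and 0 had an unadjusted p under 0.05, with differences of -0.36 to 0.01. At most 1 of them was called under any other setting tried.

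**Figure D3:**
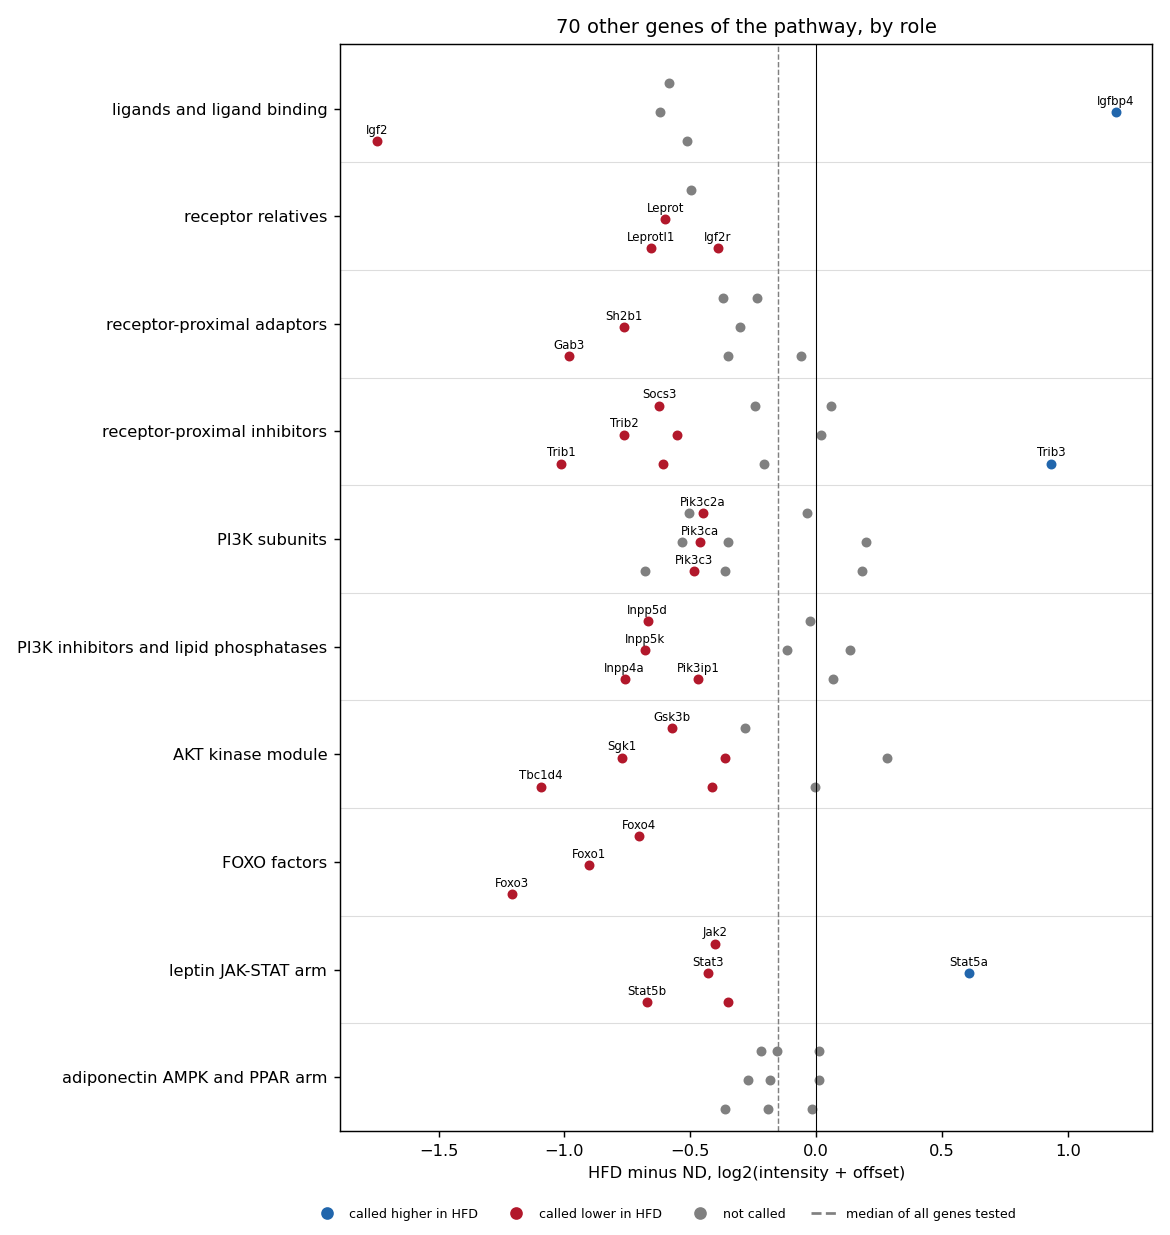
HFD minus ND difference on the log2(intensity + 17.7) scale of the 70 tested pathway genes other than the members, 1 point per gene, in rows by role. Red points were called lower, blue higher and grey not called, and the dashed line is the median of all genes tested (-0.15). FOXO factors lie between -1.21 and -0.70. The row of the AMPK and PPAR arm, in which only genes of the AMPK side were tested, lies between -0.36 and 0.01.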

How the data were processed

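RNA was measured on 3 Affymetrix arrays (2 HFD, 1 ND). The authors deposited a linear intensity for each probe set, made with GCOS, Affymetrix's array software, per the submitters' processing notes; its algorithm, background correction and version were not given in the sources used here. In the values, the 2% trimmed mean of every array is 500.0, so a large change of bright transcripts shifts the rest of an array. Precision is limited by the number of arrays. Of 45037 probe sets besides 64 controls, 34945 had 1 gene symbol, 932 several and 9160 none; only the first were named. Symbols were checked by Entrez identifier against RefSeq (GRCm38.p6): 34741 matched and 0 changed. No genome build is named for the probe sets, so only promoter coordinates are printed.

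Values were taken as log2(intensity + 17.7), the offset being their 25th percentile. A gene took the values of its brightest probe set, if that mean exceeded 71.4, the probe sets' median. The test of HFD against ND was limma 3.58.1 (two-sided, with a variance trend) in R 4.3.3, and p-values were adjusted by Benjamini-Hochberg over 10341 genes, or over 22518 probe sets in the fit of single probe sets. With 1 residual degree of freedom, the estimated prior degrees of freedom (11.7) carry most of the spread. Tests on simulated data recovered most of the changed genes. There few genes were changed, by 2-fold or more, with spread drawn from the fitted model, so this recovery does not carry over to smaller differences. The prior degrees of freedom were poorly determined in these tests. A larger share of the calls was false than the threshold of 0.05 allows, so adjusted p-values here can be too small. A fit with the prior degrees of freedom fixed at 4 was added after seeing the data. Levels are not compared between probe sets.

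The members and lists were chosen with earlier results of these data known. All 10 members are named with every probe set, and from each role of the pathway list up to 3 called genes with the largest difference in both HFD arrays, plus Foxo1, Jak2, Stat3, Socs3, Pik3ip1 and 1 further gene not analysed here. Pik3cd, Pik3ap1, Ptpn11, Sh2b3 and Tyk2 are named outside this rule, as are the untested Ppara, Ppargc1a, Prkaa2 and Prkag3. Alternatives covered normalization, offset, filter, probe set merging, variance model and leaving out each HFD array. Protein sequences were not used here.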

Additional observations from a re-analysis of the deposited data

How the results depend on the processing

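Calls of Insr, Igf1r and Pik3r1 kept their direction and side of the threshold under each alternative with a test in which they were included, with largest adjusted p-values of 0.0303, 0.0439 and 0.0270 and differences of -0.77 to -0.59, -0.54 to -0.38 and -0.997 to -0.83. Leaving out each HFD array, which leaves no test, gave -0.78 to -0.72, -0.60 to -0.47 and -1.17 to -0.80. Adipor2 was not called with arrays centred (adjusted p = 0.197), without a variance trend (0.0850) or with the prior degrees of freedom fixed at 4 (0.0576), and averaging its probe sets turned its sign (0.0249). With arrays centred, 1 member (Akt1, adjusted p = 0.0172) and 5 pathway genes were called higher; there, and in the gene fit with the stricter filter (75th percentile), the estimated prior degrees of freedom became infinite, so a gene's own spread did not count and calls kept there carry little weight. Member probe sets called higher numbered 1 with quantile normalization and 1 with arrays centred, and those called lower 5 of 30 without any filter (5.91% of all probe sets), 5 of 9 under the stricter filter (33.4%) and 4 of 20 without a variance trend (12.7%). The stricter filter, which tests fewer genes, left 1 pathway gene called higher, and the fit without a variance trend 19 called lower. Leaving out each HFD array gave 0 to 1 members at least 2-fold lower. Of 28 pathway genes named by the rule above, 13 were called under each alternative in which they were tested. The other 15 lost the call under at least 1 (Foxo4, Gab3, Gsk3b, Igf2, Igf2r, Jak2, Pik3c2a, Pik3c3, Pik3ca, Pik3ip1, Socs3, Stat3, Stat5b, Trib1 and Trib3). The cause was not tested. No paired analysis was possible because there is only 1 ND array. The dim Lepr, Irs1 and Irs2 values are limited by signal over background.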
